A study of Mus musculus with 6 samples.

Results

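The epithelial regulators described here are 9 genes: the transcription factor genes Ehf, Elf3, Grhl1, Grhl2, Ovol1, Ovol2 and Trp63, and the splicing regulator genes Esrp1 and Esrp2. They were chosen by name, and their members are all probe sets whose platform annotation names exactly one of these genes. That rule gave 20 probe sets, and all 9 of the 18193 genes measured had at least 1. Ehf, Grhl2 and Trp63 had 4 probe sets each, Esrp2 and Ovol1 had 2 each, and Elf3, Grhl1, Esrp1 and Ovol2 had 1 each.

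The cells were B6CBAF1/J mouse embryonic fibroblasts in the first week of reprogramming, in which introduced factors push a body cell toward a stem cell state. One combination, O(5R)SK, held OCT4 in the form named 5R, together with SOX2 and KLF4. The other, O(WT)SK, held wild-type OCT4 with the same SOX2 and KLF4, and both were grown in serum-containing ES cell medium with LIF, the leukemia inhibitory factor. Each combination was measured once on days 3, 5 and 7, on 6 Affymetrix arrays in all. There were no replicates within a combination and day, and nothing in the labels says whether the arrays came from separate cultures. The p-values therefore reflect how these 6 arrays scatter, part of which may be technical. What 5R stands for, how the factors were delivered and whether cells were pooled is not given in the labels. Cells that received no factors were not analysed here.

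As background, fibroblasts are mesenchymal cells, and mouse fibroblasts gain epithelial features early in reprogramming, a mesenchymal-to-epithelial transition. GRHL1 and GRHL2 are grainyhead-like factors that bind and activate genes of epithelial junctions. EHF and ELF3 are ETS-family factors of epithelial cells, OVOL1 and OVOL2 are zinc finger repressors that hold down mesenchymal genes such as Zeb1, and TRP63 (p63) is the master regulator of stratified epithelium. ESRP1 and ESRP2 are RNA-binding proteins that select the epithelial exons of genes such as Fgfr2, Cd44 and Ctnnd1.

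All 10 listed fibroblast markers were above background on all 6 arrays, which goes with the tissue label. All 6 listed macrophage markers were as well. Of all probe sets with 1 gene, 62.4% to 69.4% were above it on each array, so this check is not specific to fibroblasts. Pairwise correlations of the arrays, taken across genes, which are no independent replicates, lay between r = 0.975 and r = 0.984. In 2 of its 4 added controls the O(5R)SK day 3 array stood apart: the 3′ to 5′ ratio of dap was 3.09 there, against 2.26 to 2.76 on the other arrays, and that of thr was 3.78, against 2.05 to 2.56. Its lys ratio of 2.22, its phe ratio of 1.15 and its Gapdh ratio of 0.797 lay within those of the others. The phe ratio separated the combinations, with 1.08 to 1.15 in O(5R)SK and 1.28 to 1.47 in O(WT)SK, and its part in differences between the combinations was not tested.

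No detection calls come with these values, so background was taken from genes that fibroblasts are not known to use. A value counted as above background when it exceeded the 95th percentile of 80 probe sets for olfactory and vomeronasal receptor genes on the same array. On days 3, 5 and 7 that level was 32.4, 46.0 and 40.2 with O(5R)SK and 34.8, 32.9 and 37.3 with O(WT)SK. By construction 5% of receptor values exceed it, while 62.4% to 69.4% of all probe sets with 1 gene did on each array. Of the 120 values of the 9 genes (20 probe sets on 6 arrays), 43 were above background, or 35.8%. With the 99th percentile of the receptors in place of the 95th, 26 values were. On days 3, 5 and 7, 6, 8 and 7 of the 20 probe sets were above background with O(5R)SK, and 6, 9 and 7 with O(WT)SK, so that most probe sets were dim on each array, although only 6 of the 20 were dim on all 6 arrays.

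The promoters of Elf3 and Ovol2 are shown because each holds a short motif of a delivered factor. Promoter windows, 250 bases before to 50 after the annotated start, were found in RefSeq (GRCm38.p6) for 3 of the 9 genes, Elf3, Ovol2 and Grhl1, the last with 2 windows. Capitals mark every match, on either strand, to the 7 motifs searched. These were the octamer ATGCAAAT bound by OCT4, CATTGTT (SOX), GGGTGTG (KLF), the E-box CACCTG bound by ZEB and SNAI repressors, AACCGGTT (GRHL), CCGGAAGT (ETS) and CCGTTA (OVOL).
Elf3, chr1:135258423-135258722, minus strand: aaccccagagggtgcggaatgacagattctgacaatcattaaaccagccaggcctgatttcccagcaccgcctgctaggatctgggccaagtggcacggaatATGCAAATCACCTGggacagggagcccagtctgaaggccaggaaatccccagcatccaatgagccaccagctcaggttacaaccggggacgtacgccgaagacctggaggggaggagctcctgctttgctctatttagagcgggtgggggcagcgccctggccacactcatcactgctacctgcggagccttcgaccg
Ovol2, chr2:144331313-144331612, minus strand: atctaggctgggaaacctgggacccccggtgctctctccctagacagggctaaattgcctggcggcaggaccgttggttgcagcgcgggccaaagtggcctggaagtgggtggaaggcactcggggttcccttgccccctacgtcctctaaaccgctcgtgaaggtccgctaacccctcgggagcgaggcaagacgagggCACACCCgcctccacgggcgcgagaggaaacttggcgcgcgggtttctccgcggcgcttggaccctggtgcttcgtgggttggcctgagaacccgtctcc

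In the Elf3 window the octamer begins 148 bases before the start, and the E-box follows it directly, beginning 140 bases before the start. In the Ovol2 window the KLF motif lies on the opposite strand, its first base on the transcript strand 50 bases before the start. Of all 32851 promoter windows, 1.74% hold the octamer, 20.2% the E-box and 7.95% the KLF motif. The SOX motif is in 3.78% of windows, the ETS motif in 3.89%, the OVOL motif in 2.76% and the GRHL motif in 0.146%. The 2 Grhl1 windows hold none of the 7. A match is a description of these letters, not a binding site.

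**Figure D1:**
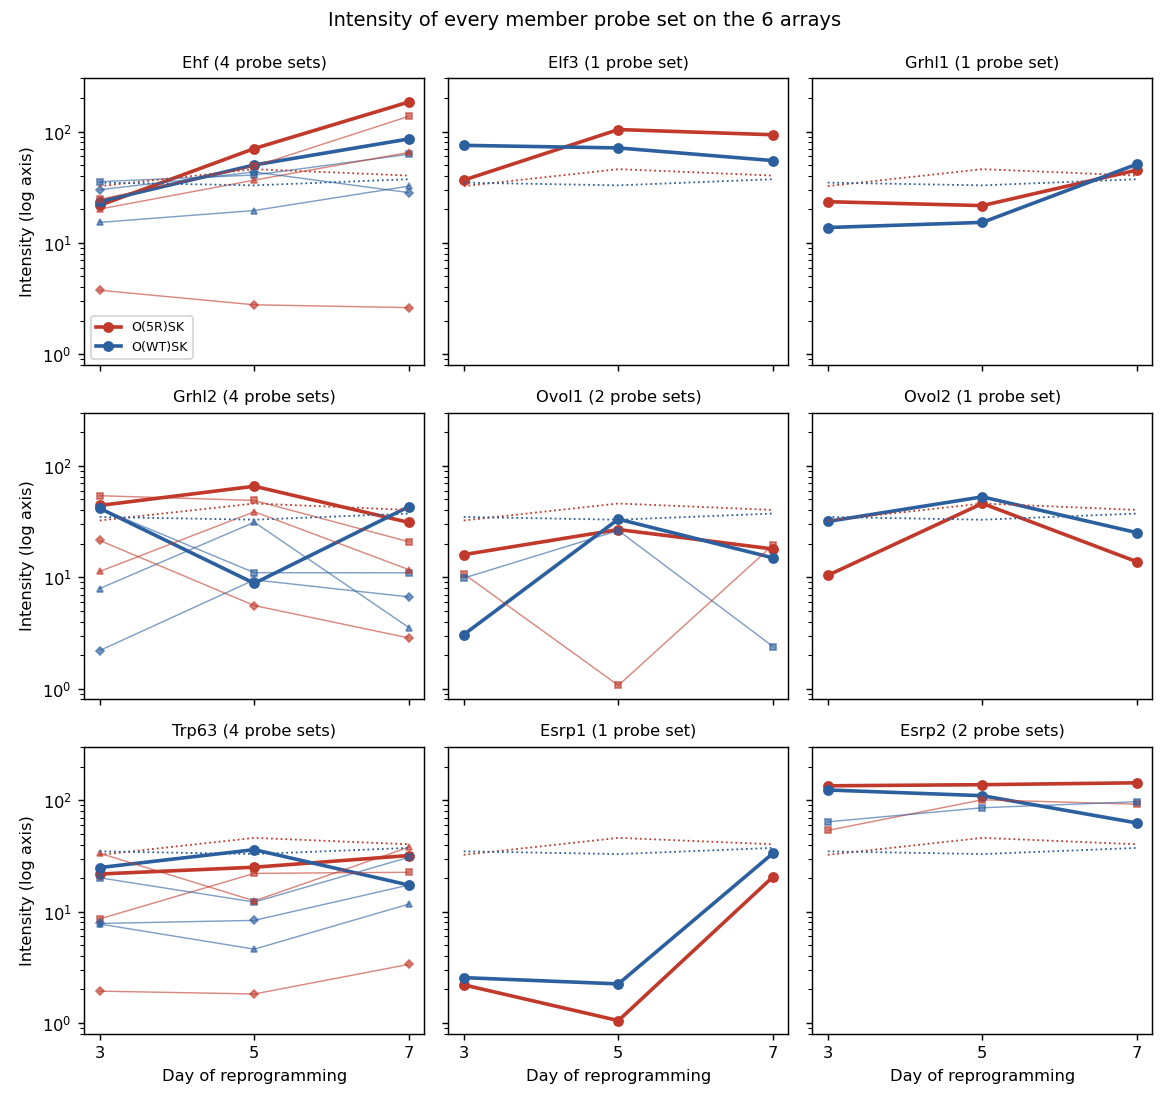
Intensity (log axis) of all 20 probe sets on days 3, 5 and 7, with O(5R)SK in red and O(WT)SK in blue. The thick line is the brightest probe set of each gene, thin lines are its other probe sets, and dotted lines are the background level of each combination. Elf3 and both Esrp2 probe sets lie above the dotted lines on every array. The brightest Ehf probe set crosses them after day 3, and Esrp1 stays below.

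Ehf was the 1 member whose rise with time passed the test, among the 4 that could be tested. Its brightest probe set (1451375_at) read 21.7, 70.4 and 184 on days 3, 5 and 7 with O(5R)SK, and 23.5, 50.1 and 85.9 with O(WT)SK. Both day 3 arrays were below background and all 4 later arrays were above it. With the 99th percentile of the receptors 3 arrays were above it, and O(WT)SK day 5 was not (50.1 against 59.9). Since day 3 gave only a bound, the day 7 mean was at least 3.75-fold higher, the day 3 arrays being set to their background level. The same bound was 5.70-fold with O(5R)SK and 2.47-fold with O(WT)SK, each from 1 array per side and without a test. These bounds rest on the 95th percentile of the receptors. The 99th percentile, 54.0 on O(5R)SK day 3 and 42.7 on O(WT)SK day 3, would lower them. The fitted day 7 minus day 3 value was 1.89 on the log2(intensity + 16) scale (SE 0.26, 95% interval 1.20 to 2.58). It passed among the genes bright enough to be tested (limma adjusted p = 0.0252), but not when all genes were tested without a filter (limma adjusted p = 0.0922). In bulk cells, more cells that express a gene and more RNA per cell cannot be told apart.

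Across all genes 6.52% of the 12622 tested were called higher on day 7 and 10.2% were called in either direction. A gene was tested if its brightest probe set had a mean above the 40th percentile of all probe sets (an intensity of 33.5), which 4 of the 9 members passed: Ehf, Elf3, Grhl2 and Esrp2. Ehf passed this filter through its later, bright arrays, so its place among the tested genes is not independent of its rise. The Ehf call was lost when any single day 3 or day 7 array was left out (adjusted p from 0.0758 to 0.103), where limma called 0 genes in all, with 2619 to 3288 genes at an unadjusted p under 0.05. It was also lost with the mean of the 4 probe sets (0.99, adjusted p = 0.0514). Under the other 7 alternatives that gave Ehf a value it passed, with an adjusted p from 0.00209 to 0.040.

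The other Ehf probe sets did not all follow the brightest. The second brightest (1419475_a_at) read 24.6, 48.7 and 137 on days 3, 5 and 7 with O(5R)SK, and 35.5, 40.7 and 62.6 with O(WT)SK. It was above background on 5 arrays, O(WT)SK day 3 among them, and below it on O(5R)SK day 3. With the 99th percentile of the receptors it was above on 2 arrays. It was highest on both day 7 arrays, and in a fit of every probe set its day 7 minus day 3 value was 1.26 (SE 0.32, limma adjusted p = 0.106). In that fit 4.67% of 23234 probe sets were called and 3.08% were called higher, the brightest Ehf probe set among them (adjusted p = 0.040). The third (1419474_a_at) read 20.1, 36.6 and 65.0 with O(5R)SK and 15.3, 19.5 and 32.4 with O(WT)SK, and it was above background only on the O(5R)SK day 7 array. These 3 correlated with each other over the 6 arrays with r from 0.916 to 0.961, a description over shared arrays. The remaining one (1447760_x_at), whose suffix marks probes that may hybridise to other transcripts, read 3.76, 2.78 and 2.62 with O(5R)SK and 30.1, 43.4 and 28.3 with O(WT)SK, and did not follow them (r from -0.59 to -0.27). Only its O(WT)SK day 5 value was above background.

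On day 7 the 3 Ehf probe sets that follow each other read higher with O(5R)SK, and the remaining one read lower (2.62 against 28.3, both below background). The log2 differences of the brightest probe set were -0.07, 0.39 and 0.98 on days 3, 5 and 7, and those of the second were -0.34, 0.19 and 0.96. On day 7 the ratio of O(5R)SK to O(WT)SK was 2.15 on the brightest and 2.19 on the second. Over the 3 days the fitted difference of the brightest was 0.43 (95% interval -0.13 to 0.99, limma adjusted p = 0.611). It was 0.16 without either day 7 array and 0.68 without either day 3 array, and -0.042 with the mean of the 4 probe sets. The slope over the days was steeper with O(5R)SK by 1.04 per 4 days (SE 0.17, 95% interval 0.58 to 1.51), which did not pass over all genes (unadjusted p = 0.00307, limma adjusted p = 0.647). For both comparisons limma called 0% of 12622 genes, with 1180 genes at an unadjusted p under 0.05 for the factor difference and 949 for the slopes.

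Among the tested genes, those whose log2 values followed Ehf most closely over the 6 arrays were Mpzl2 (r = 0.9995), Rbl2 (r = 0.997) and Pon2 (r = 0.996). Mpzl2 encodes an epithelial cell adhesion protein of the immunoglobulin family. It read 113, 401 and 1425 on days 3, 5 and 7 with O(5R)SK, against 130.3, 279.9 and 547 with O(WT)SK. Rbl2 encodes the pocket protein p130 and Pon2 a paraoxonase. With 6 arrays such values are common: 712 tested genes had r above 0.9 with Ehf.

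Elf3, the other ETS factor, was above background on all 6 arrays. Its day 7 value lay above day 3 with O(5R)SK and below it with O(WT)SK, a difference that did not pass the test. From day 5 to day 7 it was lower in both, by -0.13 with O(5R)SK and -0.30 with O(WT)SK on the log2 scale. It read 36.6, 104 and 93.6 on days 3, 5 and 7 with O(5R)SK, and 75.2, 71.3 and 54.9 with O(WT)SK. The O(5R)SK day 3 array was the lowest of the 6, and the 2 later O(5R)SK arrays were the highest. The differences of O(5R)SK from O(WT)SK were -0.79, 0.46 and 0.63 on days 3, 5 and 7. The difference of slopes was 1.42 per 4 days (SE 0.56, 95% interval -0.10 to 2.95, limma adjusted p = 0.676). It rests on day 3 of O(5R)SK, the array with the high dap and thr ratios: without it the difference of slopes was 0.10. Without the O(5R)SK day 7 array it was 2.75. The part of those ratios in the result was not tested.

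Over the 3 days, the fitted difference of Elf3 between the combinations was 0.10 (95% interval -0.71 to 0.91, limma adjusted p = 0.924). Its day 7 minus day 3 value was 0.35 (95% interval -0.64 to 1.33, limma adjusted p = 0.576), and -0.32 without the O(5R)SK day 3 array. The pattern of Elf3 was followed most closely by BC005537 (r = 0.998), the cell cycle phosphatase gene Cdc25b (r = 0.990) and the F-box gene Fbxo2 (r = 0.979).

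**Figure D2:**
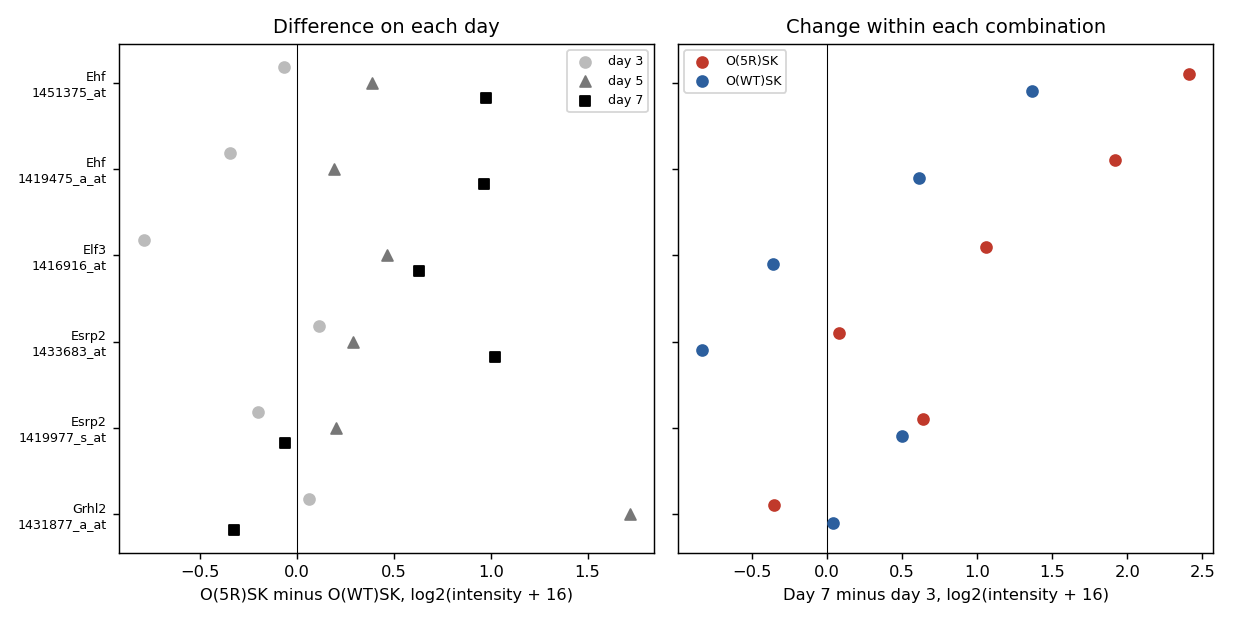
Differences on the log2(intensity + 16) scale for the 6 probe sets past the filter on low values, each point from 1 array per side. On the left is O(5R)SK minus O(WT)SK on days 3, 5 and 7, on the right day 7 minus day 3 within each combination. On the right the O(5R)SK point exceeds the O(WT)SK point for every probe set except that of Grhl2 (-0.35 against 0.04).

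Of the splicing regulators, Esrp2 was above background on all 6 arrays on both of its probe sets, while Esrp1 was above it on none. The brighter Esrp2 probe set (1433683_at) read 135, 138 and 143 on days 3, 5 and 7 with O(5R)SK, and 124, 110.0 and 62.6 with O(WT)SK. The O(5R)SK arrays were level, and among the O(WT)SK arrays day 7 was the lowest. Its differences of O(5R)SK from O(WT)SK were 0.11, 0.29 and 1.02 on days 3, 5 and 7, with a fitted value of 0.47 over the days (95% interval -0.05 to 1.00, limma adjusted p = 0.565). That value was 0.20 without either day 7 array. The Esrp2 difference of slopes was 0.91 per 4 days (95% interval 0.18 to 1.64, unadjusted p = 0.0250, limma adjusted p = 0.647), with 0.38 without the O(WT)SK day 7 array and 1.44 without the O(WT)SK day 3 array.

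The second Esrp2 probe set (1419977_s_at) did not show that difference. It read 53.6, 101 and 92.2 with O(5R)SK and 64.04, 85.7 and 97.1 with O(WT)SK, and both combinations were lowest on day 3. In the fit of every probe set its difference between the combinations was -0.02 (95% interval -0.33 to 0.29). Its day 7 minus day 3 value was 0.57 (SE 0.14, limma adjusted p = 0.101), against -0.38 for the brighter one (SE 0.24, limma adjusted p = 0.360). The log2 values of the 2 probe sets correlated over the 6 arrays with r = -0.31, so the course of Esrp2 with time depends on the probe set. The genes closest to the brighter Esrp2 probe set were Dmxl1 (r = 0.993), the myosin chaperone gene Unc45a (r = 0.990) and the synaptic organiser gene Cbln1 (r = 0.990).

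Esrp1 read 2.20, 1.05 and 20.5 on days 3, 5 and 7 with O(5R)SK, and 2.56, 2.24 and 33.4 with O(WT)SK. Its 2 day 7 values were the highest, but neither reached the background of its array, and no fold is given. Of the 8 listed genes with exons known to be regulated by ESRP proteins, 7 had a probe set and were tested, and all 7 were above background on all arrays. Enah, which encodes an actin regulator, fell by 0.62 on the log2 scale between day 3 and day 7 (SE 0.12, limma adjusted p = 0.0499), 1 call of 7 where 3.68% of all tested genes were called lower, and the call was lost with the mean of probe sets, after quantile normalization, without the filter and when any 1 array was left out. The median over the 7 was -0.29, against 0.03 over all tested genes. Fgfr2 had a value of -0.42, Ctnnd1 of -0.43 and Magi1 of -0.29, none past the threshold. These arrays do not tell splice forms apart. All 15 other splicing regulators listed, among them Ptbp1, Rbfox2 and Mbnl1, were tested, and limma called 0 between day 7 and day 3 (4 at an unadjusted p under 0.05), where 10.2% of all tested genes were called. Their largest values were -0.58 for Rbfox2, -0.53 for Ptbp2, -0.30 for Celf1 and 0.26 for Khdrbs1. Under 4 of the alternatives 1 to 4 of the 15 were called.

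Grhl2 had 4 probe sets with different courses. The brightest (1431877_a_at) read 44.2, 65.7 and 31.1 on days 3, 5 and 7 with O(5R)SK, and 41.6, 8.82 and 43.1 with O(WT)SK. It was above background on 4 arrays. O(5R)SK day 7 was below background, and so was O(WT)SK day 5, the lowest array. The day 5 difference of 1.72 was the largest of the 3, with 0.06 on day 3 and -0.33 on day 7. As O(WT)SK on day 5 gave only a bound, O(5R)SK was at least 2.00-fold higher there, from 1 array per side. That bound rests on the 95th percentile of the receptors on the O(WT)SK day 5 array, 32.9. The 99th percentile there was 59.9, near the 65.7 of O(5R)SK. A second probe set (1427046_at) read 54.0, 49.0 and 20.8 with O(5R)SK and 41.6, 11.0 and 11.0 with O(WT)SK, higher with O(5R)SK on each day but above background only on both day 3 arrays and on O(5R)SK day 5. The other 2 ranged from 2.20 to 21.4 and from 3.54 to 38.8 and were above background on no array.

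The fitted difference of Grhl2 between the combinations was 0.48 (95% interval -0.63 to 1.59, limma adjusted p = 0.730), and -0.13 without either day 5 array. Day 7 minus day 3 was -0.16 (95% interval -1.52 to 1.20, limma adjusted p = 0.859). Klhl36 (r = 0.983), the coronin gene Coro6 (r = 0.979) and Tprn (r = 0.975) followed it most closely. Klhl36 and Coro6 shared its low O(WT)SK day 5 array, with 8.82 and 11.1 there, against 33.2 and 30.4 or more on every other array.

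Grhl1 was above background only on day 7, in both combinations. It read 23.5, 21.6 and 45.1 on days 3, 5 and 7 with O(5R)SK, and 13.8, 15.3 and 51.0 with O(WT)SK. Day 7 was thus at least 1.43-fold higher than day 3, a bound from 2 arrays per side. With the 99th percentile of the receptors, only the O(WT)SK day 7 value of Grhl1 was above background. Grhl1, like Esrp1, Ovol1, Ovol2 and Trp63, did not pass the filter on low values. When the filter was dropped, limma called 0 of 18193 genes between day 7 and day 3 (3648 at an unadjusted p under 0.05), and the adjusted p was 0.124 for Grhl1 and 0.0793 for Esrp1.

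Ovol2 was above background only on day 5, in both combinations. It read 10.4, 46.0 and 13.8 with O(5R)SK, and 31.7, 52.8 and 25.2 with O(WT)SK. The O(5R)SK day 5 value was 46.04 against a background of 45.97, and with the 99th percentile of the receptors no Ovol2 value was above background. One Ovol1 probe set ranged from 1.07 to 26.3 and was above background on no array. The other ranged from 3.05 to 33.3 and exceeded background only on the O(WT)SK day 5 array, by 33.3 against 32.9.

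Trp63 was at background. Its 4 probe sets ranged from 1.82 to 37.9, and 2 of their 24 values were above background, 33.5 on the O(5R)SK day 3 array and 36.0 on the O(WT)SK day 5 array, on different probe sets. With the 99th percentile of the receptors none was. Of 10 keratinocyte markers with a probe set, which mark the stratified epithelium that needs p63, 5 to 7 were above background with O(5R)SK and 6 or 7 with O(WT)SK. Krt1 and Krt15 were above background on no array, and Krt5 was on 4. The summed intensity of the 10 ranged from 5319 to 8640 with O(5R)SK and from 5141 to 7851 with O(WT)SK, highest on day 7 in both. Most of it was Perp, a desmosomal gene that rose by 0.78 between day 3 and day 7 (SE 0.11, limma adjusted p = 0.0263). Perp was the 1 call among 6 tested keratinocyte genes, where 6.52% of all genes were called higher. The median of the 6 was 0.03, and Krt5 (-0.08), Krt14 (-0.34) and Sfn (-0.55) had negative values that did not pass. Trophoblast markers summed to between 1002 and 1239 with O(5R)SK and between 1019 and 1186 with O(WT)SK. The trophoblast factor Elf5 was above background on no array, and 0 of the 5 tested trophoblast genes were called.

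Markers of other cell types moved with day as well, where 3.68% of all tested genes were called lower and 6.52% higher. Of 6 macrophage markers 5 fell between day 3 and day 7, with 3 falls after quantile normalization and 2 with the mean of probe sets, and their summed intensity on days 3, 5 and 7 was 7839, 4210 and 2832 with O(5R)SK and 8349.8, 4657 and 3353 with O(WT)SK. Of 10 fibroblast markers, Thy1 fell by 0.71 and Postn by 0.65 on the log2 scale. The other 8 were not called, 4 of the 10 had positive values, and the median was -0.06. Of 10 pluripotency markers 5 were tested, of which Fbxo15 and Utf1 rose, while Nanog, Sox2, Zfp42, Tdgf1 and Lin28a were above background on no array. Among the 5 was Pou5f1, the gene of OCT4, which read 2290 to 4803. OCT4 and SOX2 were delivered, and whether the Pou5f1 and Sox2 probe sets read the introduced copies was not tested. Utf1 was below background on both day 3 arrays and at least 2.10-fold higher on day 7, and its call was lost after quantile normalization and with the mean of probe sets. Fbxo15 and Utf1 passed the filter through their later, brighter arrays, so their place among the tested genes is not independent of their rise. No call on these markers held when a day 3 or day 7 array was left out, or without the filter. The 2 tested endothelial markers of 4 were not called. The part of these changes, and of the keratinocyte markers, in the rise of Ehf was not tested.

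**Figure D3:**
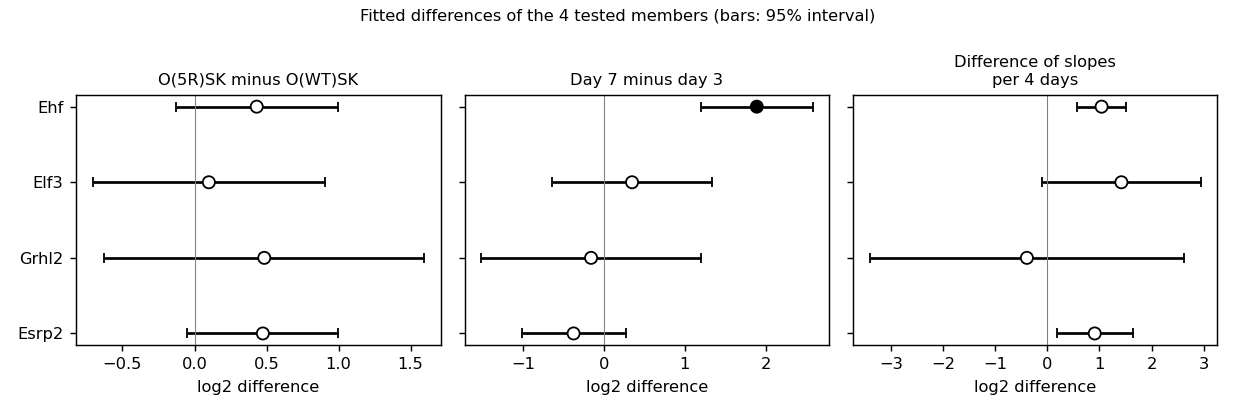
Fitted log2 differences of the 4 tested members with 95% intervals from limma. Filled points passed an adjusted p of 0.05 over 12622 genes: only Ehf, at 1.89 for day 7 minus day 3, did.

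Of the close relatives, the epithelial ones stayed dim and a pair of CP2 genes rose. Of 12 listed relatives 10 had a probe set and 5 were tested, of which 2 rose, where 6.52% of all tested genes were called higher. The epithelial ETS genes Elf5 and Spdef were above background on no array, and the grainyhead gene Grhl3 and Trp73 on 1 each. Among the grainyhead-related CP2 genes, Tfcp2 rose by 0.66 between day 3 and day 7 (SE 0.10, limma adjusted p = 0.0281). Tfcp2l1, a factor of naive pluripotency, had a fitted value of 2.26 (SE 0.14, limma adjusted p = 0.00777). It read 54.8, 56.7 and 276 on days 3, 5 and 7 with O(5R)SK, and 2.68, 4.95 and 87.7 with O(WT)SK. As O(WT)SK was below background on days 3 and 5, its day 7 value was at least 2.52-fold higher than day 3 there, a bound from 1 array per side. Tfcp2l1 passed the filter through its day 7 arrays, so its place among the tested genes is not independent of its rise. The Tfcp2 and Tfcp2l1 calls were lost without the filter and when any single day 3 or day 7 array was left out. Elf1, a widely expressed ETS gene, had a value of 0.29 and Ubp1 of 0.22, neither past the threshold.

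Genes of epithelial adhesion and polarity rose in part. Of 28 listed adhesion and polarity genes 27 had a probe set and 15 were tested. Between day 3 and day 7, 5 of the 15 rose and 2 fell, where 6.52% of all tested genes were called higher and 3.68% lower. The 5 were Cdh1 (1.69), which encodes E-cadherin, the keratin gene Krt8 (1.18), the membrane protease gene St14 (1.17), the desmosome gene Dsp (1.09) and the protease inhibitor gene Spint2 (0.89). Krt19, another keratin gene, fell by 1.38 on the log2 scale, with 552 on O(5R)SK day 7 against 1705 on O(5R)SK day 3, and 740.3 on O(WT)SK day 7 against 1684 on O(WT)SK day 3. Macc1, a regulator of the Met receptor gene, fell by 1.06, being below background on both day 7 arrays and at least 1.78-fold lower there than on day 3. The limma adjusted p was smallest for St14 (0.0126) and largest for Krt8 (0.0391). The tight junction gene Cldn3 was below background on both day 3 arrays and at least 2.76-fold higher on day 7, which did not pass the threshold (limma adjusted p = 0.0504). Macc1 passed the filter through its day 3 arrays and Cldn3 through its day 7 arrays. Their place among the tested genes is therefore not independent of their change. The probe sets of Spint2 and Cldn3 carry the same suffix as 1447760_x_at of Ehf, so their probes may hybridise to other transcripts too. The median over the 15 genes was 0.55, against 0.03 over all tested genes.

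As with Ehf, limma called 0 of these 15 genes when any day 3 or day 7 array was left out. Quantile normalization gave 5 rises and 3 falls, and shifting the arrays to a common median gave 6 and 2. That shift moved the median of all tested genes to -0.07 and the split of calls to 579 higher and 593 lower, against 823 and 464. Of the 27 genes on the array, 9 were above background on no array, among them Rab25, Ocln, Prss8 and Marveld2, which encode epithelial trafficking, junction and protease proteins.

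The repressors of the epithelial state were all above background on all 6 arrays. Of these 7 genes limma called 0 between day 7 and day 3 (2 at an unadjusted p under 0.05), where 10.2% of all tested genes were called and the median of the 7 was 0.15, and 0 between the combinations, where it was -0.13. Zeb1, a target of OVOL repression in other settings, read 1456, 1903 and 1476 on days 3, 5 and 7 with O(5R)SK, and 1689, 2167 and 2373 with O(WT)SK. It was lower with O(5R)SK on each day, by a fitted -0.36 (limma adjusted p = 0.516). Prrx1, a homeobox gene of mesenchyme, had a day 7 minus day 3 value of 0.38 (limma adjusted p = 0.0755) and Snai1 of -0.47 (limma adjusted p = 0.0883). Prrx1 was called as higher with a pseudocount of 64, with the stricter filter and with the trended, robust prior. With the stricter filter 1 of the 7 was also called lower. Twist2 had a value of 0.16.

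**Figure D4:**
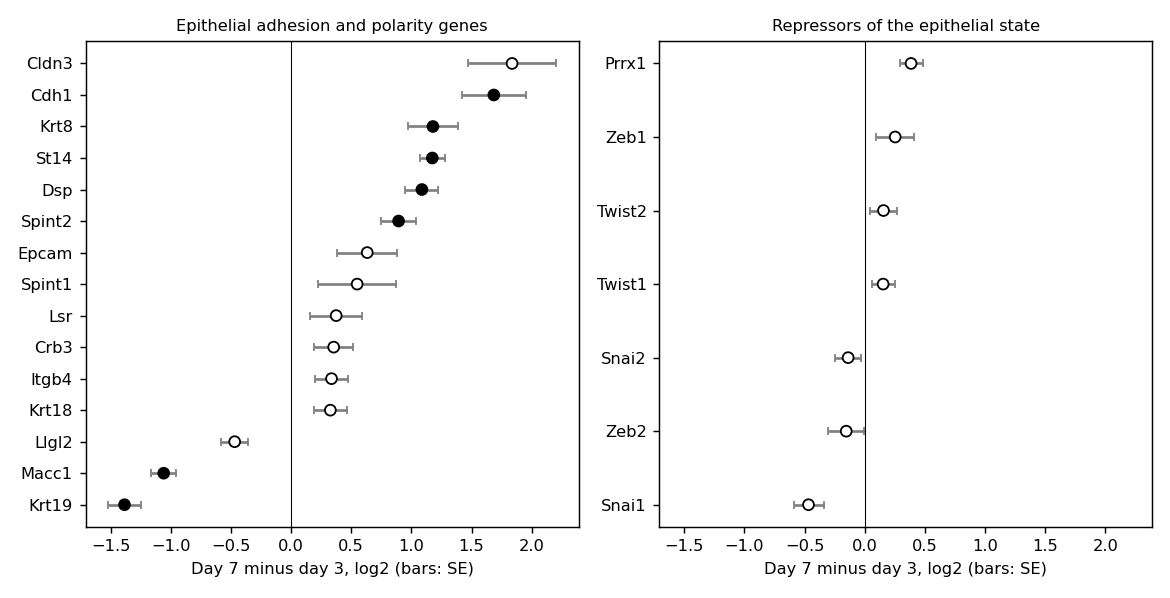
Day 7 minus day 3 (log2, bars are SE) over both combinations for the 15 tested epithelial adhesion and polarity genes and the 7 repressors of the epithelial state. Filled points passed limma's adjusted p of 0.05: 5 epithelial genes to the right of 0, 2 to the left, and no repressor.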

How the data were processed

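Each deposited value is a linear intensity of a probe set on an array. The authors used affy, per the submitters' processing notes. For its version, summary method and background correction, nothing is given in the sources used here. Their 2% trimmed mean is 500 on every array. No column was left unused (0). Of 45101 probe sets, 932 name several genes and 9211 none; these and the 64 control probe sets were not tested, and 34945 with 1 gene remained. Of probe sets with 1 gene, 34754 were found in RefSeq (GRCm38.p6), with 0 symbols changed.

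The brightest probe set stood for each gene, and values were taken as log2(intensity + 16), which understates fold changes of dim genes. Tests used limma 3.58.1 in R 4.3.3 with Benjamini-Hochberg adjustment over all genes past the filter. One fit had factor combination and day as terms, the other the slopes over days. With 4 coefficients each, they leave 2 residual degrees of freedom. The eBayes prior added 2.60 to the first fit and 2.22 to the second. A factor difference that changes with day enters the residual of the first. The fits were tested on simulated data. The number of arrays limits the precision.

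The members, gene lists and tests were chosen with earlier results of these data known. Named genes were all members, the 3 genes closest to each tested member by Pearson r (predicted genes skipped), and the 4 largest day 7 minus day 3 values of each of the 5 gene lists. St14, Dsp, Spint2, Macc1, the other list genes named besides and the genes named from the cell type markers were chosen after their values were seen. Alternatives changed the pseudocount (64), the filter (none, 60th percentile), the probe set rule, the scaling and the prior, or left out an array. Figures used matplotlib 3.10.9.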

Additional observations from a re-analysis of the deposited data

Results flagged for a closer look

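Elf3 and the brighter Esrp2 probe set are listed because both later O(5R)SK arrays lay above their day 3 array while both later O(WT)SK arrays lay below theirs. For Elf3 the day 7 minus day 3 value was 1.06 with O(5R)SK and -0.36 with O(WT)SK, a difference of 1.42. For Esrp2 it was 0.08 with O(5R)SK and -0.83 with O(WT)SK, a difference of 0.91. The test of the difference of slopes did not pass for either (limma adjusted p = 0.676 for Elf3 and 0.647 for Esrp2). Without the O(5R)SK day 3 array the Elf3 difference of slopes was 0.10, and without the O(WT)SK day 7 array that of Esrp2 was 0.38.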

How the results depend on the processing

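By replicate number, no paired analysis was possible because the labels give none; the fit matches the combinations by day. Under 13 alternatives, 135 of 156 values of the 4 tested members kept their direction and their side of the threshold, 6 lost the call (all of Ehf with day) and 15 changed sign; none of the 4 passed the stricter filter. For day 7 minus day 3 limma called 1287 genes, and 1985 with a pseudocount of 64, 0 without the filter (where Ehf had an adjusted p of 0.0922), 2202 with the stricter filter, 800.0 when probe sets were averaged and 2846 with a trended, robust prior. Leaving out 1 array gave 0 to 1073 calls and, for Ehf, 1.48 to 2.30. For O(5R)SK minus O(WT)SK, where limma called 0 (1180 genes at an unadjusted p under 0.05), a pseudocount of 64 gave 2 calls, the stricter filter 27 and the trended, robust prior 82; the last gave 2 for the slopes. Values above background numbered 43, and 26 with the 99th percentile. With the mean of probe sets Ehf differed by -0.042 between the combinations, and Esrp2 by 0.10 between day 7 and day 3. Leaving out 1 array gave a difference between the combinations of 0.16 to 0.68 for Ehf, 0.20 to 0.66 for Esrp2, -0.17 to 0.55 for Elf3 and -0.13 to 0.89 for Grhl2, a day 7 minus day 3 value of -0.32 to 1.02 for Elf3, -0.77 to 0.45 for Grhl2 and -0.79 to 0.035 for Esrp2, and a difference of slopes of 0.10 to 2.75 for Elf3 and -2.86 to 2.08 for Grhl2. The causes were not tested. Most member values lie near background, where signal over background limits what can be measured.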
